A study of Mus musculus with 8 samples.

Results

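Collagens, laminins and integrins, the chains of the extracellular matrix and of the receptors that hold cells to it, were followed in mouse embryonic stem cells with and without TCF/LEF transcription factors. Members were every gene of the deposited comparison tables whose symbol is that of a collagen chain, a laminin chain or an integrin alpha or beta chain, with no regard to expression. The symbol patterns gave 87 genes of the 47729 in the count files, namely 44 collagens, 11 laminins and 32 names of the integrin pattern. Of those 32, 4 are not integrin chains (Itgbl1, Itgb1bp1, Itgb1bp2 and Itgb3bp), and Itgam was listed under 2 gene identifiers. A filter on low counts kept 66 of the 87 members for testing. No library held more than 18 counts of any of the other 21, among them Itga2 (0 to 18), Col14a1 (4 to 13), Itgb8 (0 to 12), Itga4 (0 to 11) and Lamc3 (0 to 11).

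RNA was sequenced from 8 cultures of E14TG2a cells, a stem cell line of strain 129/Ola, with 2 libraries in each of 4 groups. All cultures had grown for 48 h in medium with 15% serum and LIF, a cytokine that keeps stem cells from differentiating. WT cells carried no targeted allele and are labelled as biological replicates, with no clone named. QKO cells are labelled null for TCF7, TCF7L1, TCF7L2 and LEF1, and the study describes them as without any full-length factor of the family. QT7 and QT7L1 are QKO cells given back 1 copy of TCF7 or of TCF7L1, as the study's design and their titles have it, while TCF7L2 and LEF1 are labelled null in both. The genotype tags instead give 1 intact allele of TCF7L1 for QT7 and of TCF7 for QT7L1, opposite to the titles, and the names below follow the titles. Both libraries of QKO, QT7 and QT7L1 are labelled as clones A and B, so p-values measure the spread between clones or cultures of 1 cell line.

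TCF/LEF factors bind DNA and carry beta-catenin, the messenger of Wnt signalling, to its target genes. A basement membrane is a sheet of laminin trimers, each of an alpha, a beta and a gamma chain, joined to a network of collagen IV, and early embryonic cells lay one down before they form an epithelium. Integrins are pairs of an alpha and a beta chain that span the cell membrane. Chains such as alpha3 and alpha6 bind laminin, alpha5 and alphaV bind the RGD sequence of fibronectin and vitronectin, and alpha1, alpha2, alpha10 and alpha11 bind collagen. Fibrillar collagens such as collagen I are made mainly by fibroblasts and other mesenchymal cells.

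Libraries held 31573536 to 43362627 counts. Levels are given as counts per 1e+06 counts (CPM), scaled between libraries by TMM. The 10 pluripotency markers checked summed to 5720 to 7320 CPM in every library. Markers of other cells were measured too. Fibroblast markers other than collagens summed to 59 to 123 CPM, with Lum and Fap at 0 counts in every library and Dcn at no more than 3. Markers of primitive and parietal endoderm, the embryonic cells that make the most collagen IV and laminin, summed to 43.1 to 117 CPM, highest in WT replicate 2 (117) and QT7 replicate 1 (85.3). The 8 markers of blood and endothelium summed to 117 to 203 CPM, of which Laptm5 made up 108 to 191. Tek reached 21.7, Cd34 9.22 and Cdh5 2.99 CPM, while no library held more than 10 counts of Fcer1g or 5 of Ptprc, Tyrobp or Hba-a1.

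Because QKO cells lack the factors that read it, the DNA before the start of members was searched for the TCF/LEF core, CTTTGA on either strand, in RefSeq windows (build GRCm38.p6) from 250 bases before to 50 after a gene's start. Of the 87 members, 62 had such a window, and 15 of their 68 windows held the core (22.1%), against 5257 of all 32851 windows (16.0%). The longer CTTTGAT, which contains the core, was in 1 member's window, that of Col9a2, and in 3.73% of all windows. Of the 26 members called in any comparison, 18 had a window and 3 held the core: Col20a1, Col9a2 and Lamb2, the last only after its start. The stretches below show the core in capitals for the first 2 of these, and the DNA before Itga3 and Lama5, the most abundant members that were called in opposite directions in QKO and again in both rescued lines, which held no core in their windows. The Col20a1 stretch is chr2:180986285-180986534 (plus strand), and its core starts 31 bases before the start of the gene. The Col9a2 stretch is limited to 30 bases around the core, chr4:121039376-121039405 (plus strand), because the core, 178 bases before the RefSeq start, falls in the first exon of the GENCODE M21 model. The Itga3 stretch is chr11:95076802-95076964 (minus strand) and the Lama5 stretch chr2:180225860-180226109 (minus strand). A match or its absence describes these letters only.
Col20a1: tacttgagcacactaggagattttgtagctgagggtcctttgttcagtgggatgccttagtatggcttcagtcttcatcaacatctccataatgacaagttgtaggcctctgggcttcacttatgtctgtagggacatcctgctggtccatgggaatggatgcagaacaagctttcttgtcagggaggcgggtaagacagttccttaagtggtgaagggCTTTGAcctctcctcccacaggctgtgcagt
Col9a2: ccaggaggaaggCTTTGAtcttggaggcaa
Itga3: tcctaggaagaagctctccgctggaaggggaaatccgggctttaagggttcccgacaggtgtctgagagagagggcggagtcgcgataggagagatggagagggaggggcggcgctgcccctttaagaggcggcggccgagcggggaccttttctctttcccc
Lama5: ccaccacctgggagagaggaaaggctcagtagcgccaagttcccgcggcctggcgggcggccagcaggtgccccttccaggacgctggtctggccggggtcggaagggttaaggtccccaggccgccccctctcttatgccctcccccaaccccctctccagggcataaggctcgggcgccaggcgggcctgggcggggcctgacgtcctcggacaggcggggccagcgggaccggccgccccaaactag

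Compared per kilobase of exon, the members with the most transcript were chains of the basement membrane and of its receptors. Itgb1, the beta chain shared by most matrix integrins, led with a mean of 81.8 CPM per kb over the 8 libraries. It was followed by the laminin gamma chain Lamc1 (67.1), the basement membrane collagen Col18a1 (64.2), the laminin receptor chains Itga3 (29.6) and Itga6 (28.1), the laminin alpha chain Lama5 (27.9) and the fibronectin receptor chain Itga5 (27.0). Col4a1 (19.7), Lamb1 (15.1), Lama1 (14.2), Itgb5 (11.7) and Itgb7 (11.4) completed the 12 members over 10 CPM per kb. Among the rest, 14 lay between 1 and 10, 30 between 0.1 and 1, and 10 below 0.1. No fibroblast-type collagen and none of the 16 tested collagens outside the basement membrane and fibroblast-type classes passed 10. Col1a1 was at 2.65 CPM per kb, place 21 of the tested members. Of the integrins that bind collagen, Itga1, Itga10 and Itga11 were all below 1 CPM per kb.

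**Figure D1:**
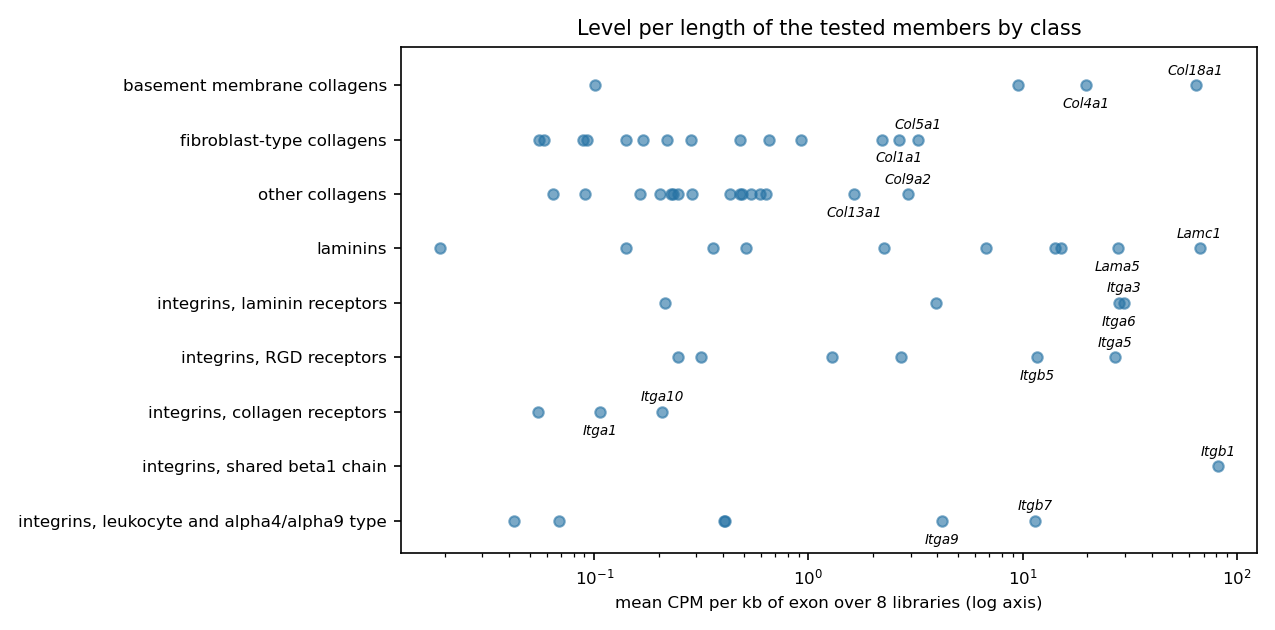
Mean level per length (CPM per kb of exon over the 8 libraries, log axis) of the tested collagen, laminin and integrin chains, 1 point a gene, by class, with the 2 highest of each class named. Itgb1 (81.8), Lamc1 (67.1) and Col18a1 (64.2) lie highest, and the collagen receptor chains all lie below 1.

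In QKO against WT, 13 of the 66 tested members were called (19.7%), 5 higher and 8 lower, where 26.4% of all tested genes were called, 11.7% higher and 14.7% lower. Called means an adjusted p under 0.05 in edgeR's quasi-likelihood test. The members' median log2 fold change was -0.302, and that of all genes -0.00543. In QT7L1 against WT, which shares the WT libraries, the members' median was -0.303 and that of all genes 0.00406. In QT7 against WT those medians were -0.0122 and 0.00822. Among the 5 members higher in QKO were the integrin chains Itga9, Itga3 and Itga5 and the collagen Col6a5. The 8 lower ones were the laminin chains Lamb1 and Lama5, the integrin chains Itgb5 and Itgav, and the collagens Col11a2, Col9a3, Col23a1 and Col18a1. Col23a1, at no more than 0.487 CPM in any library, is named only because it was called. Both QKO libraries lay above all 6 others for those 5 higher members (19.6% of all genes did so), and below all 6 for 13 members (21.5%). Against WT alone, both QKO libraries were above both of WT for 9 members (34.0% of all genes) and below both for 23 (35.4%), and the groups overlapped for 34.

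In QT7 against QKO, 18 members were called (27.3%), 13 higher and 5 lower, against 26.9% of all genes (14.8% higher, 12.1% lower). QT7L1 against QKO called 19 members (28.8%), 10 higher and 9 lower, against 29.7% of all genes (15.9% higher, 13.9% lower). These shares of called members are close to those of all genes. Both QT7 libraries were above both of QKO for 27 members (33.5% of all genes) and below both for 12 (29.7%). Both QT7L1 libraries were above both of QKO for 20 (36.3%) and below both for 18 (34.7%). The comparisons share the QKO libraries, so their values are given side by side and their overlap is not a result. When either QKO library was left out, each comparison with QKO called fewer members and also fewer of all tested genes. The same held in QKO against WT without WT replicate 2, and in QT7L1 against QKO without either QT7L1 library. Such fits leave a group with a single library, and the loss of calls was not particular to the members.

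**Figure D2:**
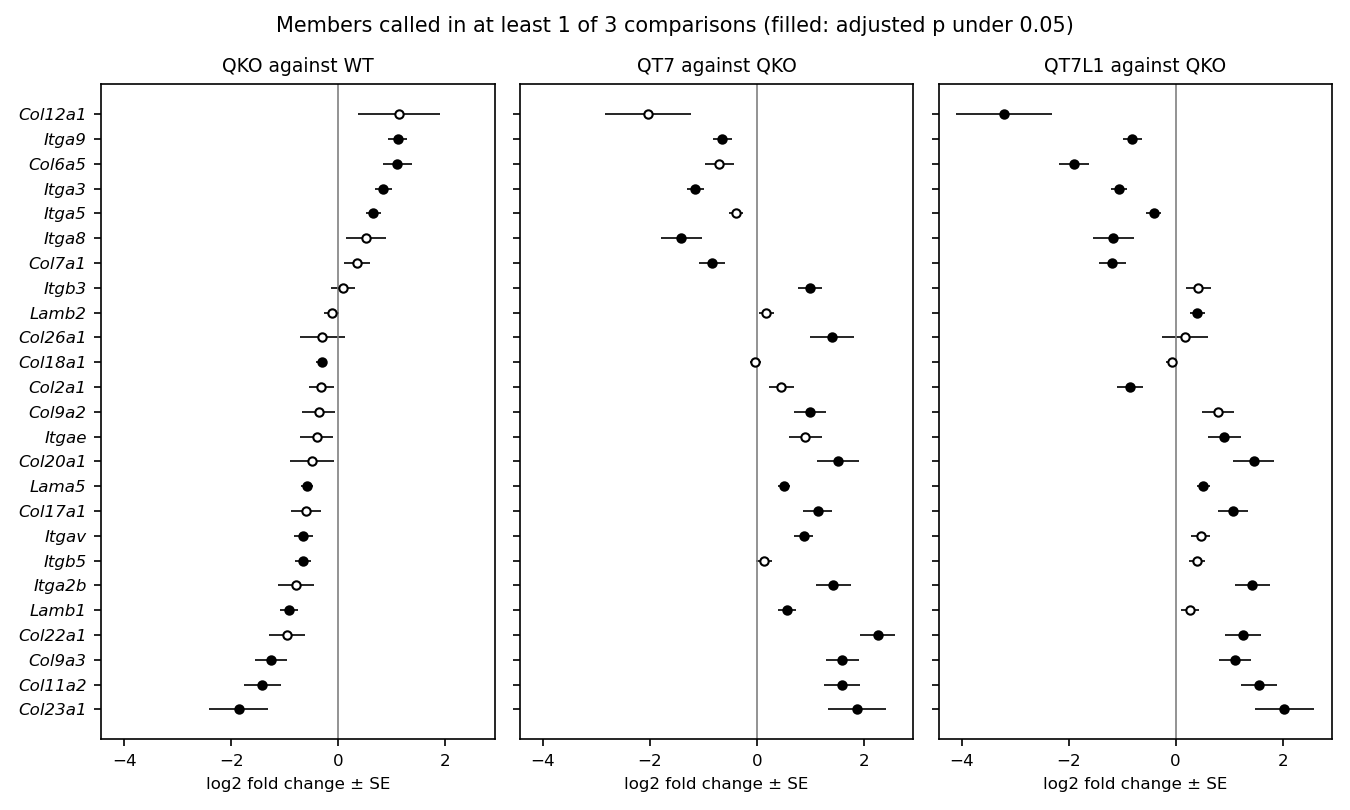
Fitted log2 fold change ± SE of members called in QKO against WT, QT7 against QKO or QT7L1 against QKO (n = 2 libraries a group; 1 called member is not shown), with filled points for an adjusted p under 0.05. Itga3 and Itga9 are filled in all 3 panels, to the right in QKO and to the left in both rescued lines, and Lama5, Col11a2, Col9a3 and Col23a1 are filled in all 3 on the opposite sides.

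Laminin alpha chains set the type of a laminin trimer. Lama5 (chr2:180176373-180225859), the alpha chain of laminin-511, was at 218 and 256 CPM in the QKO libraries, next to 335 and 376 in WT, 314 and 361 in QT7, and 357 and 321 in QT7L1. The QKO libraries were below all 6 others, and those of the other 3 groups overlapped. Lama5 fell by 0.59 on the log2 scale in QKO against WT (SE 0.12, adjusted p = 0.00639), and rose by 0.51 ± 0.12 in QT7 (adjusted p = 0.011) and by 0.52 ± 0.12 in QT7L1 (adjusted p = 0.00951) against QKO. The fall missed the threshold without WT replicate 2 (adjusted p = 0.0616) or QKO replicate 1 (0.0522), the rise in QT7 without QKO replicate 1 (0.0871), and the rise in QT7L1 without QKO replicate 1 (0.0725) or QT7L1 replicate 1 (0.0716).

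Lama1 (chr17:67697259-67822647), the alpha chain of laminin-111 and the main one of parietal endoderm, was at 116 and 227 CPM in the WT libraries and 99.3 and 131 in those of QKO, with 200 and 120 in QT7 and 96.6 and 111 in QT7L1. WT replicate 2 and QT7 replicate 1 stood above the other 6 libraries, and the groups overlapped in QKO against WT, where the log2 difference was -0.58 ± 0.38 (adjusted p = 0.311). These were also the libraries with the most endoderm marker transcript (117 and 85.3 CPM summed, 43.1 to 67.6 in the others), and whether those cells contribute to Lama1 was not tested. In bulk RNA, more cells of a type and more RNA per cell cannot be told apart. Lama5 exceeded Lama1 in every library, in a ratio of their CPM of 1.57 to 3.7. Lama2, Lama3 and Lama4 were at no more than 7.09 CPM in any library.

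The beta and gamma chains did not move together. Lamb1 (chr12:31265234-31329644), the beta chain of laminin-111 and laminin-511, was at 94.2 and 120 CPM in both QKO cultures, 172 and 235 in those of WT, 172 and 144 in those of QT7 and 126 and 133 in those of QT7L1. QKO lay below all other libraries, and the WT libraries were the highest, WT replicate 1 only just above QT7 replicate 1. Lamb1 fell by 0.92 on the log2 scale in QKO (SE 0.17, adjusted p = 0.00503), a call that was kept when any of the 8 libraries was left out. It rose in QT7 against QKO (0.56 ± 0.17, adjusted p = 0.0331), with adjusted p of 0.186 when QKO replicate 1 was left out, 0.127 without QT7 replicate 1 and 0.0545 and 0.0542 without one or the other QT7L1 library. In QT7L1 against QKO the difference was 0.27 ± 0.17 (adjusted p = 0.245).

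Lamc1 (chr1:153218922-153332786), the gamma chain of both trimers, was at 531 and 612 CPM in the QKO libraries, next to 546 and 633 in WT, 573 and 544 in QT7, and 496 and 509 in QT7L1. QT7L1 lay below the other 6 libraries, and no comparison called Lamc1 (QKO against WT -0.04 ± 0.11, adjusted p = 0.785). The ratio of Lamc1 to Lamb1 CPM was 3.17 and 2.7 in the WT libraries and 5.64 and 5.09 in those of QKO, with 3.33 and 3.76 in QT7 and 3.93 and 3.84 in QT7L1, highest in both QKO libraries. Lamb2, the beta chain of other laminins, was at 32.0 and 40.3 CPM in both QKO cultures, 36.8 and 42.0 in those of WT, 39.1 and 42.6 in those of QT7 and 48.7 and 47.1 in those of QT7L1. Both QT7L1 libraries were above all others. Lamb2 rose in QT7L1 against QKO (0.41 ± 0.14, adjusted p = 0.046), not without QKO replicate 1 (0.275), QT7L1 replicate 1 (0.163), QT7L1 replicate 2 (0.13), WT replicate 1 (0.0548) or WT replicate 2 (0.0564), nor with RLE scaling (0.0532).

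Lama3 and Lamb3, chains of laminins in epithelia, were low, at 2.1 to 7.09 and 1.66 to 7.25 CPM over the 8 libraries, and neither was called in the comparisons with QKO.

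Collagen IV, the network of the basement membrane, differed more between the WT libraries than between groups. Col4a1 (chr8:11198423-11312826) was at 96.0 and 270 CPM in the WT libraries and 100 and 128 in those of QKO, with 197 and 182 in QT7 and 90.3 and 114 in QT7L1. WT replicate 2 was the highest, WT replicate 1 lay with QKO and QT7L1, and both QT7 libraries exceeded both of QKO. Col4a2 (chr8:11312805-11449287), its partner chain, was at 43.6 and 51.1 CPM in both QKO cultures, 44.5 and 122 in those of WT, 77.0 and 74.8 in those of QT7 and 40.5 and 49.8 in those of QT7L1. Here too WT replicate 2 was the highest and both QT7 libraries exceeded both of QKO, and the ratio of Col4a1 to Col4a2 CPM stayed between 2.15 and 2.56 in all 8 libraries. The genes are arranged head to head, with starts 21 bases apart on opposite strands and 22 shared exon bases, so a few reads could belong to either.

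In QKO against WT the log2 difference was -0.68 ± 0.47 for Col4a1 (adjusted p = 0.339) and -0.82 ± 0.44 for Col4a2 (adjusted p = 0.228). Without WT replicate 2 the differences turned to 0.25 (adjusted p = 0.435) and 0.089 (0.788), and without WT replicate 1 both genes were called lower, at -1.24 (0.00341) and -1.37 (0.00169). WT replicate 2 is also the library with the highest endoderm marker sum (117 CPM, against 48.7 in WT replicate 1). Those sums were 85.3 and 51.8 CPM in QT7 and 48.1 and 67.6 in QKO, while both QT7 libraries exceeded both of QKO in Col4a1 and Col4a2. The part of endoderm cells in collagen IV was not tested. Col18a1 (chr10:77052178-77166548), which yields endostatin, was at 430 and 436 CPM in the QKO libraries, next to 498 and 573 in WT, 402 and 445 in QT7, and 393 and 429 in QT7L1. WT was above the other 6 libraries. Col18a1 fell by 0.31 on the log2 scale in QKO (SE 0.10, adjusted p = 0.0477), close to the threshold. The adjusted p was 0.321 without WT replicate 2, 0.157 and 0.16 without QKO replicate 1 or 2, 0.0685 and 0.0684 without QT7L1 replicate 1 or 2, 0.0554 with RLE scaling and 0.0536 in DESeq2.

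**Figure D3:**
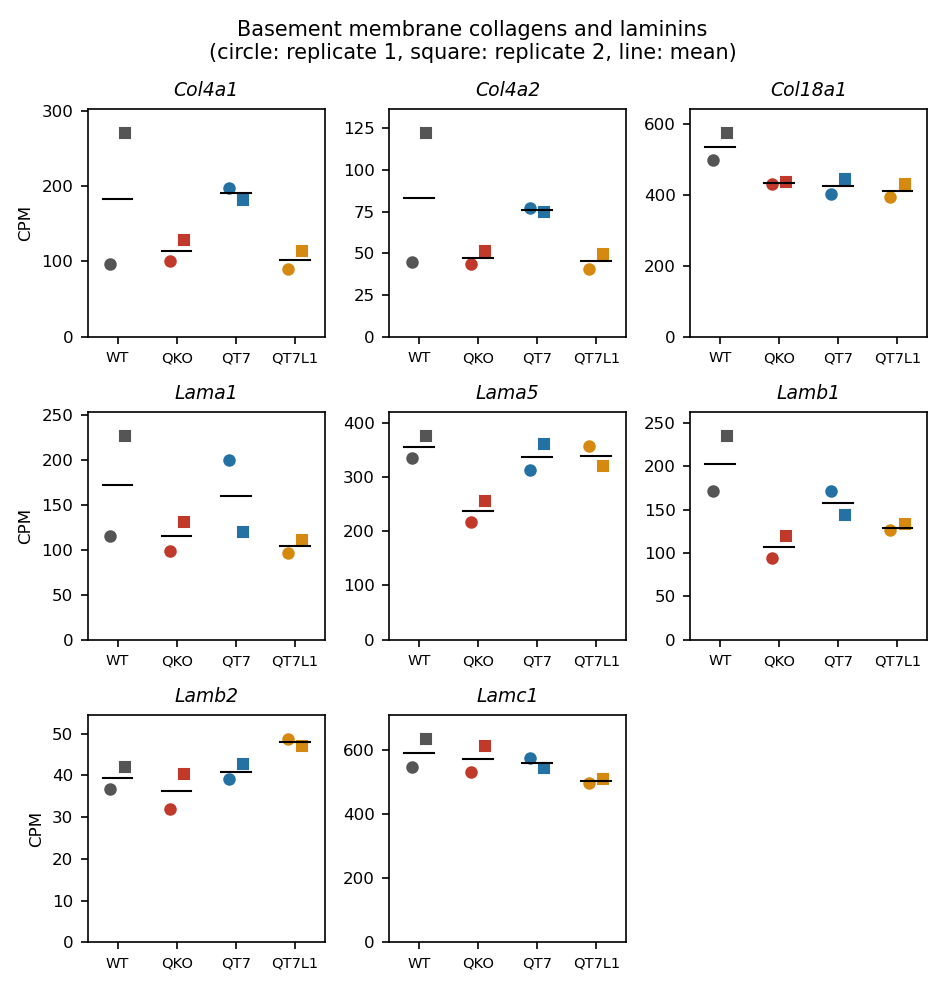
Levels (CPM, axes from 0) of 8 basement membrane collagen and laminin chains in each library, with circles for replicate 1, squares for replicate 2 and a line for the group mean. Lama5 and Lamb1 are lowest in both QKO libraries, Lamb2 is highest in both of QT7L1, and Col4a1, Col4a2 and Lama1 are highest in WT replicate 2.

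Integrins that bind laminin were led by Itga3 and Itga6, and only Itga3 was called. Itga3 (chr11:95044474-95076801), the alpha3 chain, which pairs with beta1 and binds laminin-511, was at 153 and 150 CPM in the WT libraries and 240 and 305 in those of QKO, with 103 and 142 in QT7 and 131 and 130 in QT7L1. QKO was above every other library, and both rescued lines lay below WT. It averaged 152 ± 2.54 CPM in WT and 272 ± 46.2 in QKO (SD, n = 2). Itga3 rose by 0.84 ± 0.16 on the log2 scale in QKO (adjusted p = 0.00524, or 0.0533 without WT replicate 2), and fell by 1.15 in QT7 (SE 0.16, adjusted p = 0.00167) and by 1.06 in QT7L1 (SE 0.16, adjusted p = 0.00184) against QKO. Both falls were kept when any of the 8 libraries was left out.

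Itga6 (chr2:71745616-71858416), the alpha6 chain, was at 260 and 257 CPM in both QKO cultures, 209 and 258 in those of WT, 221 and 272 in those of QT7 and 259 and 292 in those of QT7L1. The groups overlapped, and its log2 difference in QKO against WT was 0.15 ± 0.13 (adjusted p = 0.434). Itgb1 (chr8:128685654-128733200), the beta1 chain that pairs with alpha3, alpha5, alpha6 and others, was at 331 and 357 CPM in the QKO libraries, next to 342 and 328 in WT, 334 and 327 in QT7, and 285 and 368 in QT7L1. Both the lowest and the highest value belonged to QT7L1. Its log2 difference in QKO against WT was 0.04 ± 0.12 (adjusted p = 0.835). Itgb4, the partner of alpha6 in hemidesmosomes, was at 23.3 to 33.9 CPM and Itga7 at 1.14 to 2.81 CPM, and neither was called.

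Of the 6 tested chains of RGD receptors, 3 were called in QKO against WT, 1 higher and 2 lower, where 26.4% of all genes were called. Itga5 (chr15:103344286-103366763), the alpha chain of the main fibronectin receptor, was at 96.7 and 118 CPM in the WT libraries and 174 and 164 in those of QKO, with 116 and 141 in QT7 and 115 and 140 in QT7L1. QKO was above every other library. Itga5 rose by 0.66 ± 0.14 on the log2 scale in QKO (adjusted p = 0.00842), with adjusted p of 0.0541 without WT replicate 1 and 0.0539 without QKO replicate 1. Against QKO it fell by 0.41 in QT7L1 (SE 0.14, adjusted p = 0.0479). That adjusted p was 0.19 and 0.132 when QKO replicate 1 or 2 was left out, 0.3 and 0.066 for QT7L1 replicate 1 or 2 and 0.0507 without robust estimation. In QT7 the difference was -0.39 ± 0.14 (adjusted p = 0.0584). It passed the threshold without QT7 replicate 2 (0.0234), with RLE scaling (0.0498), with no filter (0.00927), with the replicate number as a block (0.027) and in DESeq2 (0.0254).

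Itgav (chr2:83724397-83806916), the alphaV chain of vitronectin receptors, was at 23.3 and 16.8 CPM in both QKO cultures, 31.4 and 31.6 in those of WT, 39.1 and 34.3 in those of QT7 and 24.4 and 31 in those of QT7L1. QKO was below all other libraries and QT7 above all others. Itgav fell by 0.65 on the log2 scale in QKO (SE 0.18, adjusted p = 0.0229) and rose by 0.87 ± 0.18 in QT7 against QKO (adjusted p = 0.00643). The fall was lost without WT replicate 1 (0.0714), WT replicate 2 (0.11) or QKO replicate 2 (0.174), and the rise without QKO replicate 2 (0.0651). In QT7L1 against QKO the difference was 0.47 ± 0.18 (adjusted p = 0.0704, or 0.0336 without QKO replicate 1 and 0.02 with no filter). Exons of Itgav share 634 bases with a gene on the opposite strand, and the strand setting of the counting is not given in the sources used here.

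Itgb5 (chr16:33829665-33949338), a beta chain that pairs with alphaV, was at 30.7 and 36.1 CPM in the QKO libraries, next to 53.0 and 52.6 in WT, 39.1 and 33.8 in QT7, and 50.2 and 37.9 in QT7L1. WT was above every other library. Itgb5 fell by 0.66 on the log2 scale in QKO (SE 0.15, adjusted p = 0.0116), with adjusted p of 0.0674 without WT replicate 2 and 0.085 without QKO replicate 1. Against QKO it differed by 0.13 ± 0.15 in QT7 (adjusted p = 0.576) and by 0.40 ± 0.15 in QT7L1 (adjusted p = 0.0723). The QT7L1 difference passed the threshold without QT7 replicate 1 (0.0437), QT7 replicate 2 (0.0442) or QT7L1 replicate 2 (0.0442), and with no filter (0.0288).

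Itgb3 (chr11:104608000-104670476), the other main partner of alphaV and the beta chain of the platelet integrin, was at 5.10 and 5.78 CPM in the WT libraries and 6.55 and 5.02 in those of QKO, with 13.1 and 9.98 in QT7 and 8.48 and 7.03 in QT7L1. Both QT7 libraries were the highest. Itgb3 rose in QT7 against QKO by 1.00 ± 0.23 on the log2 scale (adjusted p = 0.0106, or 0.105 without QKO replicate 2). Itga2b, the alpha chain of the platelet integrin, was at 0.745 and 0.942 CPM in both QKO cultures, 1.19 and 1.72 in those of WT, 1.97 and 2.60 in those of QT7 and 2.45 and 2.13 in those of QT7L1. QKO was the lowest. Itga2b rose against QKO by 1.43 ± 0.33 in QT7 (adjusted p = 0.0112) and by 1.44 ± 0.33 in QT7L1 (adjusted p = 0.0105). Its calls were lost without QKO replicate 1 (0.0783 and 0.071) or QKO replicate 2 (0.0569 and 0.0514), and in QT7L1 without QT7L1 replicate 1 (0.064). Itga8 was called lower in both rescued lines against QKO, at 2.23 and 3.55 CPM in QKO and 0.893 to 1.40 CPM in the 4 libraries of the rescued lines. Those calls were lost in QT7 without QKO replicate 2 (0.174) or QT7 replicate 1 (0.0782), and in QT7L1 without QKO replicate 1 (0.051), QKO replicate 2 (0.292), QT7L1 replicate 1 (0.207) or QT7L1 replicate 2 (0.142).

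Itga9 (chr9:118606690-118901003), the alpha9 chain, which binds tenascin and other ligands and groups with the leukocyte integrin alpha4, was at 56.8 and 39.9 CPM in the QKO libraries, next to 21.3 and 23.5 in WT, 33.1 and 28.7 in QT7, and 25.6 and 29.6 in QT7L1. QKO was above all other libraries and WT below all others. Itga9 rose by 1.11 ± 0.17 on the log2 scale in QKO (adjusted p = 0.00247), a call that was kept when any of the 8 libraries was left out. It fell by 0.64 in QT7 (SE 0.17, adjusted p = 0.0204) and by 0.81 in QT7L1 (SE 0.17, adjusted p = 0.00749) against QKO. Without QKO replicate 1, its highest library, these falls had adjusted p of 0.182 and 0.0673. They were also lost without QT7 replicate 2 (0.0754) and QT7L1 replicate 1 (0.0697). Itgb7, a partner of alpha4 and alphaE on lymphocytes, was at 28.5 to 34.7 CPM and Itgae, the alphaE chain, at 1.21 to 2.48 CPM. The leukocyte chains Itgam and Itgb2 were at no more than 0.357 CPM.

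**Figure D4:**
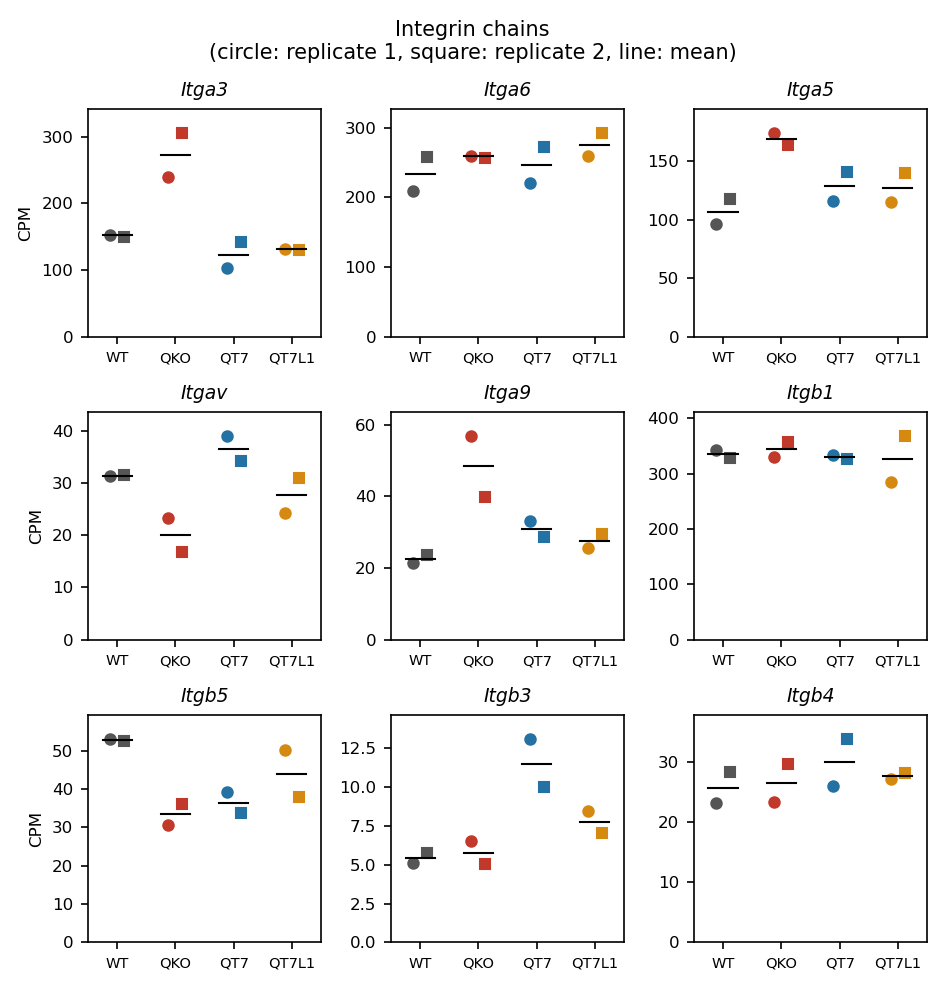
Levels (CPM, axes from 0) of 9 integrin chains in each library, with circles for replicate 1, squares for replicate 2 and a line for the group mean. Itga3, Itga5 and Itga9 are highest in both QKO libraries, Itgav is lowest there, and Itgb1 and Itga6 overlap between groups.

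The fibroblast-type collagens were a chosen list of fibrillar chains, fibril-associated partners and chains of collagens VI and VIII. Col2a1, Col11a1, Col11a2, Col27a1, Col6a4, Col6a5 and Col6a6, among others, were placed with the other collagens instead. Levels of the fibroblast-type chains varied widely between the libraries of 1 group. None of the 14 tested was called in QKO against WT (26.4% of all genes were), where 0 had an unadjusted p under 0.05. None was called in QT7 against QKO (26.9% of all genes), where 1 had an unadjusted p under 0.05. In QT7L1 against QKO 1, Col12a1, was called lower (29.7% of all genes were called). All genes with an unadjusted p under 0.05 were not counted. The summed level of the fibroblast-type chains was 134 and 82.3 CPM in the WT libraries and 169 and 51.9 in those of QKO, with 59.2 and 94.3 in QT7 and 48.6 and 62.2 in QT7L1. Replicate 1 was the higher library in WT and QKO and the lower in QT7 and QT7L1.

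Collagen I, the fibrillar collagen of bone and skin, varied in this way. Col1a1 (chr11:94936224-94953042), its alpha1 chain, was at 51.0 and 5.82 CPM in both QKO cultures, 38.6 and 18.2 in those of WT, 2.58 and 13.2 in those of QT7 and 3.03 and 6.85 in those of QT7L1. Col1a2 (chr6:4504814-4541544), its alpha2 chain, was at 34.5 and 3.91 CPM in the QKO libraries, next to 25.6 and 11.8 in WT, 0.102 and 9.80 in QT7, and 0.242 and 5.63 in QT7L1. For both genes both WT libraries were above all 4 of the rescued lines, QKO replicate 1 was the highest, and QKO replicate 2 lay below WT. The ratio of Col1a1 to Col1a2 CPM was 1.22 to 1.55 in 6 libraries, and 25.2 in QT7 replicate 1 and 12.5 in QT7L1 replicate 1, where Col1a2 was nearly absent. In QKO against WT the log2 difference of Col1a2 was 0.04 ± 1.94 (adjusted p = 0.991), and it turned to -0.42 without WT replicate 2 and to -2.26 without QKO replicate 1.

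Col3a1, the fibrillar chain of soft tissue, was at 1.63 and 0.635 CPM in the WT libraries and 1.37 and 0.222 in those of QKO, with 0 and 0.391 in QT7 and 0.0909 and 0.244 in QT7L1. Col5a2 was at 19.4 and 2.66 CPM in both QKO cultures, 7.36 and 2.49 in those of WT, 0.740 and 2.60 in those of QT7 and 0.212 and 1.19 in those of QT7L1. Col12a1, a partner of collagen I fibrils named here after its values were seen, was at 4.81 and 1.14 CPM in the QKO libraries, next to 2.16 and 0.589 in WT, 0.587 and 0.851 in QT7, and 0.182 and 0.457 in QT7L1. In all 3 genes QKO replicate 1 or WT replicate 1 was the highest. Col12a1 fell by 3.20 on the log2 scale in QT7L1 against QKO (SE 0.90, adjusted p = 0.0303), and this rested on QKO replicate 1 among others. The adjusted p was 0.155 without QKO replicate 1, 0.0618 when either QT7 library was left out, and 0.165 and 0.0959 when QT7L1 replicate 1 or 2 was. In QT7 its difference was -2.03 (adjusted p = 0.0959, or 0.0478 without QKO replicate 2 and 0.0175 in DESeq2). Col5a1 and Col5a3 were at 18.8 to 35.3 and 8.04 to 23.1 CPM. Col5a1 was also highest in WT replicate 1, while Col5a3 was highest in QT7 replicate 2 and lowest in both WT libraries.

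Fibroblast markers that are not collagens were measured in the same libraries. Of 15 listed, 10 passed the filter, and their mean log2 CPM, centred per gene, was 0.996 and 0.496 in the WT libraries and 1.16 and -0.295 in those of QKO, with -1.32 and 0.258 in QT7 and -1.08 and -0.22 in QT7L1. The same mean of the fibroblast-type collagens was 1.39 and -0.346 in both QKO cultures, 1.17 and 0.349 in those of WT, -1.36 and 0.363 in those of QT7 and -1.34 and -0.238 in those of QT7L1. Replicate 1 thus exceeded replicate 2 in WT and QKO and fell short of it in QT7 and QT7L1. These 4 signs were shared by 9 of the 14 fibroblast-type collagens (64.3%) and 11 of the 66 tested members. Of all 16515 tested genes, 880 shared them (5.33%). The signs are those of the mean of the 10 markers, so the 5 markers that shared them are not a separate result. No laminin and none of the other collagens had the fibroblast marker signs, and the remaining 2 members that did were Col4a5 and the collagen receptor chain Itga11. The 4 signs of the endoderm marker mean, a later check, were shared by 4 members (6.06%) and by 5.67% of all tested genes. Col4a1, Col4a2 and Lama1 were not among these 4 members. They had the endoderm marker signs in WT, QKO and QT7 but not in QT7L1. In QT7L1 their differences were -0.334, -0.3 and -0.203, where that of the marker mean was 0.156.

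All 4 differences were at least 1 on the log2 scale for 6 fibroblast-type collagens and for 25 of all tested genes. Acta2, smooth muscle actin, was at 28.4 and 4.13 CPM in the QKO libraries, next to 15.2 and 6.21 in WT, 0.102 and 2.02 in QT7, and 0.848 and 1.34 in QT7L1. Lox, the enzyme that cross-links collagen, was at 4.85 and 1.86 CPM in the WT libraries and 13.0 and 1.66 in those of QKO, with 0.128 and 1.54 in QT7 and 0.151 and 1.10 in QT7L1. Prrx1, a mesenchymal transcription factor, was at 0 in QT7 replicate 1 and QT7L1 replicate 1. The markers Thy1, Pdgfrb, Mmp2, Tagln and Twist1 did not share the signs, Lum and Fap had 0 counts in all 8 libraries, and Dcn, Postn and Twist2 had at most 3, 19 and 12. Whether other cells, such as feeder cells, or the stem cells themselves carried these transcripts was not tested.

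**Figure D5:**
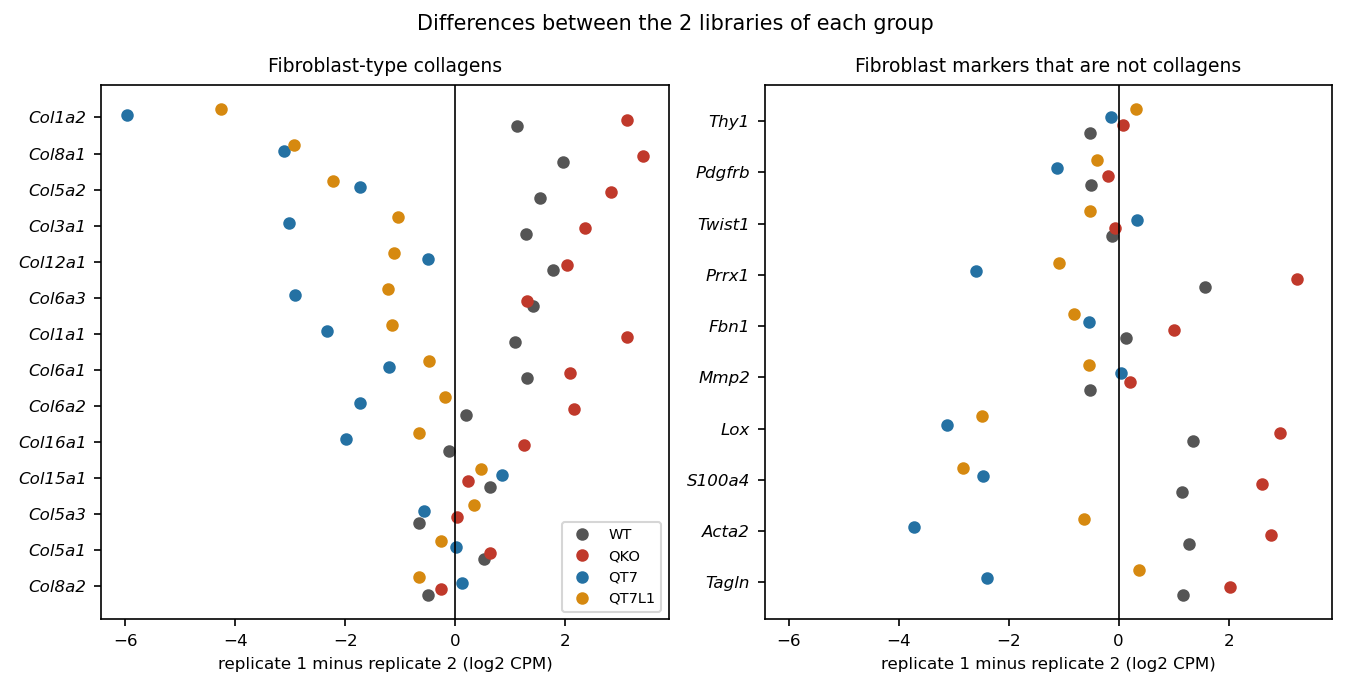
Difference between replicate 1 and replicate 2 of each group (log2 CPM, prior count 2) for the 14 tested fibroblast-type collagens and for 10 fibroblast markers that are not collagens, 1 point a group. For 9 collagens, from Col1a2 down to Col6a2, WT and QKO points lie right of 0 and QT7 and QT7L1 points left of it.

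The 16 other tested collagens, mostly of cartilage, epithelia and transmembrane types, were low in all libraries. The comparisons below share the QKO libraries, on opposite sides, so opposite signs of their medians are not a separate result. The median log2 fold change of these collagens was -0.599 in QKO against WT (4 called, 1 higher and 3 lower). It was 0.944 in QT7 against QKO (9 called, 8 higher and 1 lower) and 0.738 in QT7L1 against QKO (9 called, 6 higher and 3 lower). The called shares were 25%, 56.2% and 56.2% of the class, against 26.4%, 26.9% and 29.7% of all genes. The medians of all genes in these comparisons were -0.00543, 0.0455 and 0.0156. Their summed level was 50.1 and 46.2 CPM in both QKO cultures, 51.4 and 63.8 in those of WT, 62.0 and 68.5 in those of QT7 and 49.9 and 52.0 in those of QT7L1, so these genes had few counts.

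Col9a3, a chain of the cartilage collagen IX, was at 1.06 and 1.22 CPM in the QKO libraries, next to 2.22 and 3.20 in WT, 3.60 and 3.31 in QT7, and 2.09 and 2.83 in QT7L1. QKO was the lowest and QT7 the highest. Col9a3 fell by 1.25 on the log2 scale in QKO (SE 0.31, adjusted p = 0.0147), and rose against QKO by 1.60 ± 0.30 in QT7 (adjusted p = 0.00501) and by 1.11 ± 0.31 in QT7L1 (adjusted p = 0.0223). The rise in QT7 was kept without any of the 8 libraries. The fall was lost without WT replicate 2 (0.131), QKO replicate 1 (0.0875) or QKO replicate 2 (0.0732), and the rise in QT7L1 without QKO replicate 1 (0.113), QKO replicate 2 (0.0876) or QT7L1 replicate 2 (0.149). Its exons share 234 bases with Tcfl5 on the opposite strand. Col9a2, whose core motif is shown above and whose fold was chosen after its values were seen, was at 6.10 and 9.39 CPM in the WT libraries and 7.88 and 4.19 in those of QKO, with 11.3 and 12.7 in QT7 and 11 and 9.84 in QT7L1. It rose in QT7 against QKO (0.99 ± 0.30, adjusted p = 0.036), a call lost without QKO replicate 2 (0.225), QT7 replicate 1 (0.0556), QT7 replicate 2 (0.0939), QT7L1 replicate 1 (0.061) or QT7L1 replicate 2 (0.0609), and within the 4 libraries compared (0.0649).

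Col22a1, a collagen of tissue junctions, was at 0.993 and 0.804 CPM in both QKO cultures, 1.41 and 2.06 in those of WT, 4.95 and 3.66 in those of QT7 and 1.88 and 2.44 in those of QT7L1. QT7 was above and QKO below all other libraries. It rose against QKO by 2.26 ± 0.33 in QT7 (adjusted p = 0.00176), a call kept without any of the 8 libraries, and by 1.26 ± 0.33 in QT7L1 (adjusted p = 0.018). The latter was lost without QKO replicate 1 (0.0554), QKO replicate 2 (0.125) or QT7L1 replicate 2 (0.118). Col11a2, a fibrillar chain of cartilage, was at 0.465 and 0.471 CPM in the QKO libraries, next to 1.35 and 1.18 in WT, 1.25 and 1.56 in QT7, and 1.33 and 1.43 in QT7L1. Both QKO libraries were below all others. Col11a2 fell by 1.42 in QKO (SE 0.34, adjusted p = 0.0137) and rose by 1.58 ± 0.34 in QT7 (adjusted p = 0.00811) and 1.55 ± 0.34 in QT7L1 (adjusted p = 0.00838). The fall had an adjusted p of 0.0562, 0.0598, 0.071 and 0.0876 without WT replicate 1, WT replicate 2, QKO replicate 1 and QKO replicate 2. The rises were lost without QKO replicate 2 (0.0634 and 0.0614), and in QT7L1 also without QT7L1 replicate 2 (0.0543).

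Col17a1, a transmembrane collagen of hemidesmosomes, was at 2.00 and 2.58 CPM in the WT libraries and 1.43 and 1.61 in those of QKO, with 3.19 and 3.5 in QT7 and 3.51 and 2.86 in QT7L1. Both rescued lines were above WT and QKO. It rose against QKO by 1.14 ± 0.27 in QT7 (adjusted p = 0.0133) and by 1.07 ± 0.28 in QT7L1 (adjusted p = 0.0165). These calls were lost without QKO replicate 1 (0.0821 and 0.091) or QKO replicate 2 (0.07 and 0.0756), and in QT7L1 without QT7L1 replicate 1 (0.103) or QT7L1 replicate 2 (0.0506). Col20a1, the other member with the core motif before its start, was at 0.465 and 0.721 CPM in both QKO cultures, 0.814 and 0.862 in those of WT, 2.17 and 1.27 in those of QT7 and 1.76 and 1.52 in those of QT7L1. The rescued lines again lay above WT and QKO. It rose against QKO by 1.52 ± 0.39 in QT7 (adjusted p = 0.0171) and by 1.46 ± 0.39 in QT7L1 (adjusted p = 0.0194). The rise in QT7 was lost when QKO replicate 1 or 2 was left out (0.113 and 0.0557), when QT7 replicate 1 was (0.0749), and within the 4 libraries compared (0.0502). The rise in QT7L1 was lost without QKO replicate 1 (0.12), QKO replicate 2 (0.0559), QT7L1 replicate 1 (0.0963) or QT7L1 replicate 2 (0.0698).

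Other members of the class were called lower in a rescued line against QKO. Col6a5, a collagen VI chain of restricted expression, was at 7.42 and 8.26 CPM in the QKO libraries, next to 3.16 and 4.10 in WT, 5.61 and 4.03 in QT7, and 1.70 and 2.50 in QT7L1. QKO was above and QT7L1 below every other library. It rose by 1.10 ± 0.27 in QKO (adjusted p = 0.0157), with an adjusted p of 0.09, 0.0563, 0.0549 and 0.101 without WT replicate 1, WT replicate 2, QKO replicate 1 and QKO replicate 2. It fell by 1.90 in QT7L1 against QKO (SE 0.29, adjusted p = 0.00167), kept without any of the 8 libraries, while in QT7 the difference was -0.70 ± 0.27 (adjusted p = 0.0765, or 0.0424 without QT7 replicate 1). Col7a1, the anchoring fibril collagen of skin, was at 7.64 and 4.92 CPM in the WT libraries and 7.60 and 8.40 in those of QKO, with 4.41 and 4.49 in QT7 and 3.76 and 3.29 in QT7L1. QT7L1 was the lowest group. Col7a1 fell in QT7L1 against QKO by 1.18 (SE 0.25, adjusted p = 0.00712, or 0.0573 without QKO replicate 2 and 0.0685 without QT7L1 replicate 2). It also fell in QT7 against QKO, by 0.85 (SE 0.25, adjusted p = 0.0284), a call lost when QKO replicate 1 or 2 (0.082 and 0.152) or QT7 replicate 1 or 2 (0.0643 and 0.0549) was left out. Col2a1, the main cartilage collagen, was at 3.94 and 4.57 CPM in both QKO cultures, 5.07 and 5.51 in those of WT, 6.05 and 5.66 in those of QT7 and 2.06 and 2.65 in those of QT7L1. QT7 was above and QT7L1 below every other library. Col2a1 fell by 0.85 in QT7L1 against QKO (SE 0.24, adjusted p = 0.0221), but not without QKO replicate 1 (0.0556), QKO replicate 2 (0.139), QT7L1 replicate 1 (0.151) or QT7L1 replicate 2 (0.058).

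Against WT, few members were called in the rescued lines, and few of all tested genes. QT7 against WT called 2 of 66 (3.03%), both higher, where 4.62% of all genes were called, 2.37% higher and 2.25% lower. There, 14 members had an unadjusted p under 0.05. All genes under that cut were not counted, so the number of members cannot be set against them. Both QT7 libraries were above both of WT for 18 members (24.3% of all genes) and below both for 15 (23.3%). The 2 called members were Itgb3 (1.08 ± 0.23, adjusted p = 0.0305) and Col22a1 (1.30 ± 0.31, adjusted p = 0.0438), whose levels are given above. Neither call stood against the removal of single libraries. For Itgb3 the adjusted p was 0.21 without WT replicate 1, 0.0917 without WT replicate 2, 0.0914 without QT7 replicate 1, and 0.0556 and 0.0552 without QT7L1 replicate 1 and 2. For Col22a1 it was 0.292, 0.0824, 0.147, 0.0762 and 0.0771 in the same order, and 0.0675 without QKO replicate 1 or QKO replicate 2. Within the 4 libraries of WT and QT7 it was 0.092 for Itgb3 and 0.126 for Col22a1.

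QT7L1 against WT called 0 members in edgeR, where 0.745% of all genes were called, 0.297% higher and 0.448% lower. There, 12 members had an unadjusted p under 0.05 (all genes not counted), and DESeq2 called 5 (575 of all genes). Both QT7L1 libraries were above both of WT for 12 members (25.4% of all genes) and below both for 33 (25.4%). Among the latter were Lamb1 (QT7L1 against WT -0.65 ± 0.17, adjusted p = 0.115) and Col18a1 (-0.38 ± 0.10, adjusted p = 0.12). QT7 against QT7L1 also called 0 members in edgeR (0.00606% of all genes, 0% higher and 0.00606% lower). In that comparison 12 members had an unadjusted p under 0.05 (all genes not counted), and DESeq2 called 2 (232 of all genes). Both QT7 libraries were above both of QT7L1 for 26 members (20.7% of all genes) and below both for 3 (20.1%). The libraries of QT7 were nonetheless above all 6 others for 9 members (5.84% of all genes), among them Itgav, Itgb3, Col22a1 and Col2a1, and below all 6 for 0 (4.77%). Those of QT7L1 were above all others for 2 members (5.73%), Col23a1 and Lamb2, and below all for 9 (5.72%), among them the laminin chains Lama3, Lama4 and Lamc1. WT was above all others for 7 members (8.14%) and below all for 2 (6.85%).

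Of the genes that fold, modify and cross-link collagen, 9 of 26 tested were called in QKO against WT (34.6%, against 26.4% of all genes), 3 higher and 6 lower. P4ha1, a subunit of the prolyl hydroxylase that stabilises the triple helix, was at 33.2 and 30.4 CPM in the QKO libraries, next to 77.1 and 99.2 in WT, 89.0 and 111 in QT7, and 90.3 and 114 in QT7L1. Loxl2, an enzyme that cross-links collagen IV, was at 42.1 and 52.5 CPM in the WT libraries and 10.8 and 7.21 in those of QKO, with 47.2 and 58.2 in QT7 and 43.2 and 66.8 in QT7L1. For both genes QKO was the lowest and the other groups overlapped. Loxl2 fell by 2.4 on the log2 scale in QKO (SE 0.27, adjusted p = 0.00114), and rose against QKO by 2.55 ± 0.27 in QT7 (adjusted p = 0.00103) and by 2.61 ± 0.27 in QT7L1 (adjusted p = 0.000868). Of the same list, 5 rose and 1 fell in QT7 against QKO (23.1%, against 26.9% of all genes), and 6 rose and 4 fell in QT7L1 against QKO (38.5%, against 29.7%).

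The other basement membrane and cell surface matrix genes included 10 of 19 called in QKO against WT (52.6%, against 26.4% of all genes), 3 higher and 7 lower. Frem2, a protein that anchors epithelia to the basement membrane, was at 4 and 4.68 CPM in both QKO cultures, 34.2 and 45.7 in those of WT, 7.58 and 12.7 in those of QT7 and 17.9 and 15.6 in those of QT7L1. WT was the highest, QKO the lowest and QT7L1 above QT7. It fell by 3.20 in QKO (SE 0.26, adjusted p = 0.000462), and rose against QKO by 1.22 ± 0.25 in QT7 (adjusted p = 0.00815, or 0.0605 without QKO replicate 1) and by 1.95 ± 0.26 in QT7L1 (adjusted p = 0.00125). Bcam, a cell surface receptor for the Lama5 chain, was at 320 and 361 CPM in the QKO libraries, next to 190 and 196 in WT, 123 and 183 in QT7, and 156 and 187 in QT7L1. QKO was the highest, opposite to Lama5. Bcam fell against QKO by 1.15 in QT7 (SE 0.17, adjusted p = 0.00242) and by 0.99 in QT7L1 (SE 0.17, adjusted p = 0.00371). Fn1, fibronectin, the main ligand of the Itga5 receptor, was at 894 and 1100 CPM in the WT libraries and 539 and 544 in those of QKO, with 960 and 926 in QT7 and 1310 and 995 in QT7L1. Fn1 was lowest in QKO, where Itga5 was highest, and fell there by 0.88 (SE 0.14, adjusted p = 0.0025). In QT7 against QKO 8 genes of the list rose and 2 fell (52.6%, against 26.9% of all genes), and in QT7L1 against QKO 5 rose and 3 fell (42.1%, against 29.7%).

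Of 22 tested genes of the complex that links integrins to actin inside the cell, 4 were called in QKO against WT (18.2%, against 26.4% of all genes), 2 higher and 2 lower. In each rescued line against QKO 4 were called as well (18.2%, against 26.9% of all genes in QT7 and 29.7% in QT7L1). The kinase gene Src fell by 0.66 in QKO (SE 0.11, adjusted p = 0.00266), and the actin cross-linker Actn4 rose by 0.50 ± 0.08 (adjusted p = 0.00329). Against QKO, Src rose in QT7 (0.77 ± 0.11, adjusted p = 0.00147) and in QT7L1 (0.74 ± 0.11, adjusted p = 0.00137). Actn4 fell by 0.58 in QT7 (SE 0.08, adjusted p = 0.00174) and by 0.55 in QT7L1 (SE 0.08, adjusted p = 0.00184). Against WT, QT7 had 1 gene higher and 1 lower in this list, and QT7L1 had only Tns3 lower. The authors' deposited tables called 10 members in QKO against WT, 20 in QT7 against QKO and 15 in QT7L1 against QKO. Of these, 10, 17 and 14 were called here, and over all genes the authors called 3758, 4021 and 4217. The authors' deposited tables also called 4 members in QT7 against WT, 3 in QT7L1 against WT and 2 in QT7 against QT7L1. Of these, 2, 0 and 0 were called here, and over all genes the authors called 1159, 460 and 214.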

How the data were processed

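RNA was measured in 8 libraries, 2 for each of 4 groups taken from the titles, and a stranded TruSeq mRNA kit was used on 250 ng of RNA each, per the labels. The submitters' processing notes list bcl2fastq 1.8.4, STAR 2.4.0f1 with mm10 (GRCm38), HTSeq for counts per gene and DESeq2 as version 2.1.8.3. For HTSeq, neither version nor strand setting is given in the sources used here. It is thus not known whether the counting told apart reads of overlapping genes on opposite strands. Of the 87 members, 28 share exon bases with another gene. The deposited single-library files hold integer counts. In the deposited tables of comparisons, the authors give a mean signal (counts over size factors), a log2 fold change with its standard error, a test score and p-values, used only beside the calls made here.

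The tests used edgeR 4.0.16 (R 4.3.3): filterByExpr kept 16515 genes, libraries were scaled by TMM, and all 8 libraries entered 1 robust quasi-likelihood fit with 4 group means and 4 residual degrees of freedom. P-values of the 6 two-sided comparisons were adjusted by Benjamini-Hochberg over all genes tested and called under 0.05. SE is the absolute log2 fold change over the square root of F. CPM values use TMM, log2 CPM a prior count of 2, and lengths are exon unions of GENCODE M21. The procedure was tested on simulated data. Full statistics are given for up to 12 called members per comparison whose average log2 CPM is 0 or more and for the main chains of each class, and for up to 4 called genes of each pathway list. Counts cover every member, but the values of 1 are not reported here. The members, lists and rule were chosen with earlier results of these data known. The labels state no pairing of replicate numbers. Alternatives covered scaling, filters, DESeq2 1.42.0, the libraries fitted, a replicate block and leaving out each library.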

Additional observations from a re-analysis of the deposited data

How the results depend on the processing

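With 2 libraries a group, the number of members called rested on single libraries, and so did the number of all tested genes called. Leaving out each library in turn gave 4 to 18 called members in QKO against WT, 8 to 20 in QT7 against QKO, 7 to 22 in QT7L1 against QKO, 0 to 6 in QT7 against WT, 0 to 2 in QT7L1 against WT and 0 to 5 in QT7 against QT7L1. Calls kept without any of the 8 libraries numbered 3 of 13 in QKO against WT (among them Itga9 and Lamb1), 4 of 18 in QT7 against QKO (among them Col22a1, Col9a3 and Itga3), 3 of 19 in QT7L1 against QKO (among them Col6a5 and Itga3) and 0 of 2 in QT7 against WT. How many calls of all tested genes were kept in this way was not counted. With no low-count filter, QKO against WT called 22 members and 5262 of all genes, against 4366 of all genes in the reported fit. QT7 against QKO called 36 and 5373 (4449), QT7L1 against QKO 33 and 5749 (4912), and QT7 against WT 17 and 2203 (763). QT7L1 against WT called 19 and 1248 (123), and QT7 against QT7L1 14 and 1030 (1). The members called in this unfiltered fit included genes with a few counts. In that fit the SE of Col1a1 in QT7L1 against WT was 0.207, against 1.37 in the reported fit.

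DESeq2 called 4 members in QT7 against WT (1304 of all genes), 5 in QT7L1 against WT (575) and 2 in QT7 against QT7L1 (232). In QT7L1 against WT, upper-quartile scaling called 1 (151 of all genes) and a minimum of 1 CPM called 1 (139). A fit on the 4 libraries compared called 6 there (614 of all genes) and 0 in QT7 against WT (117). In QKO against WT, directions turned for Col1a2 (-0.42 without WT replicate 2, -2.26 without QKO replicate 1, with leave-out values from -2.26 to 0.88) and, without WT replicate 2, for Col4a1 (leave-out values from -1.24 to 0.25) and Col4a2 (from -1.37 to 0.089). The cause was not tested. A replicate block, with the comparisons ordered as for the unfiltered fit, gave 14, 19, 19, 2, 0 and 0 called members. Over all genes it called 4303, 4390, 4853, 801, 169 and 2. Same-numbered libraries deviated together at r = -0.205 to 0.164, so the numbers were not treated as pairs.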
